A study of Homo sapiens with 8 samples.

Results

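RBPMS eCLIP peaks were examined in the transcripts of 9 genes that mark human embryonic stem cells: LIN28A, LIN28B, POU5F1, SOX2, DNMT3B, SALL4, L1TD1, TDGF1 and DPPA4. The members were chosen by position. A peak was a member when it overlapped, on the strand of the gene, a window around that gene on build hg19. This gave 438 member peaks of 194003 in 4 peak lists. All 8 libraries came from the human embryonic stem cell line HUES6, labelled as WT with control treatment and grown in FTDA medium. In 4 eCLIP libraries, RNA was crosslinked to protein with UV light at 400 mJ/cm2 and pulled down with an antibody against RBPMS. The 4 input libraries of the same line were made with no antibody. No peak list of theirs was used here, and they enter through the deposited log2 fold and −log10 p of each peak. Nothing in the labels says that the libraries came from separate cultures, so the spread between them may be technical. The fold of a peak compares immunoprecipitated RNA with input and is not a level of the transcript, so cell identity was not checked from it.

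RBPMS is an RNA-binding protein with an RNA recognition motif, known to bind RNA at CAC-containing sites and to act on splicing. eCLIP maps such binding by sequencing RNA fragments that stay attached to the protein, and a peak is a stretch where those fragments pile up. The 9 genes belong to the network that holds stem cells in the pluripotent state: POU5F1, SOX2 and SALL4 encode transcription factors, LIN28A and LIN28B encode RNA-binding proteins that block maturation of let-7 microRNAs, and L1TD1 encodes an RNA-binding protein derived from a LINE-1 element. DNMT3B encodes a de novo DNA methyltransferase, DPPA4 a chromatin-associated nuclear protein, and TDGF1 (now named CRIPTO in RefSeq) a co-receptor for NODAL.

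Libraries 1, 2, 3 and 4 listed 25759, 118375, 20254 and 29615 peaks, of which 88, 174, 69 and 107 lay in the 9 windows, on average 117 ± 49.7 (SD, n = 3 samples). Libraries 3 and 4 held immunoprecipitation reads that differed by less than the sampling noise (chi-square 0.954 per degree of freedom over 342 shared peaks, p = 0.72), while the other 5 pairs gave 4.60 to 7.78. They were therefore counted as 1 sample. On the opposite strand of the same windows, 0 peaks were listed, which allows a share of up to 0.685% of peaks on that strand. The windows are rounded to whole kb. No hg19 gene models were used here, so exons, introns and untranslated regions are not assigned, and positions are given as distances from the window ends. SOX2 lies within the longer SOX2-OT in RefSeq and LIN28B overlaps LIN28B-AS1 and RNU6-1106P, in a table without strands, so reads from overlapping genes of the same strand cannot be told apart there. RefSeq names 6 pseudogenes after POU5F1, 7 after SALL4, 6 after TDGF1, 3 each after LIN28A and DPPA4, and 1 after L1TD1; the sources used here do not say how reads shared with such copies were placed.

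DNMT3B had the most enriched peaks of the 9 and the largest folds, and also the most listed peaks. The enriched peaks of LIN28A and DPPA4 lay near the 3′ end of their windows, where most listed peaks of LIN28A lay as well. POU5F1, SOX2, SALL4 and TDGF1 had enriched peaks in single libraries or at places that did not recur. LIN28B and L1TD1 had none. An enriched peak here had a log2 fold over input of at least 3, which is 8-fold, and a −log10 p of at least 3. By this rule, libraries 1 to 4 had 13 of 88, 14 of 174, 8 of 69 and 18 of 107 member peaks enriched, on average 13.3 ± 0.58 (SD, n = 3). Libraries 3 and 4, with 8 and 18, were averaged first, so this SD leaves out the gap between them. Over all listed peaks the enriched share of libraries 1 to 4 was 15.9%, 5.38%, 12.6% and 12.7%.

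**Figure D1:**
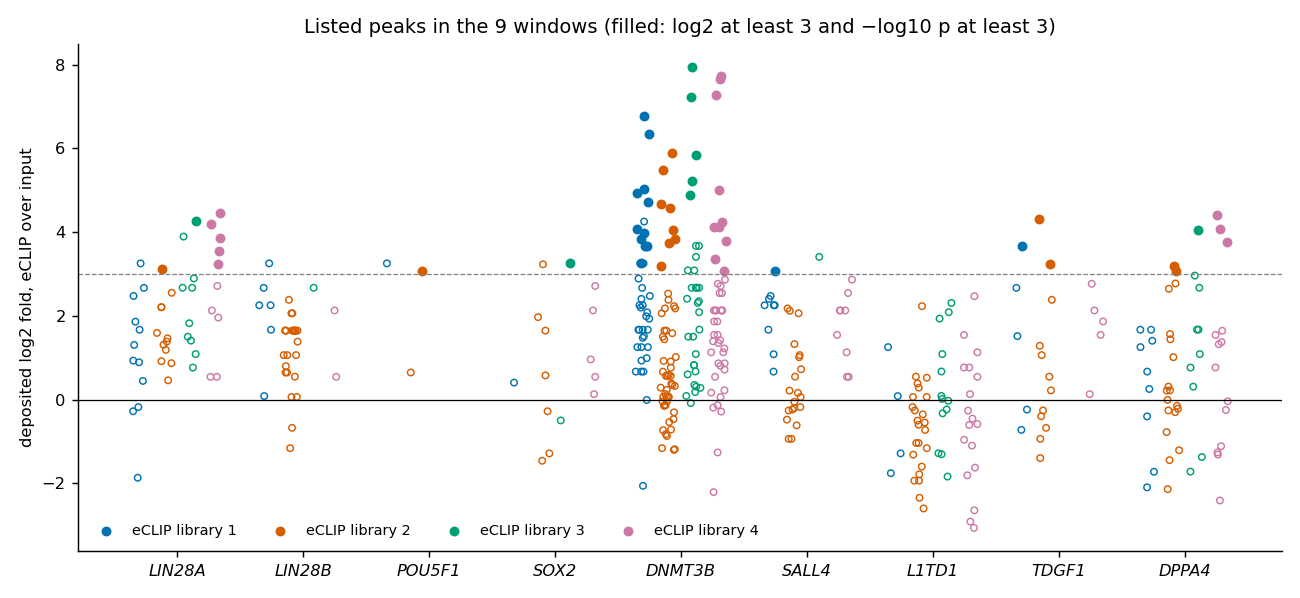
Each point is 1 listed peak, placed by gene along the horizontal axis and by the deposited log2 fold of eCLIP over input on the vertical axis, with colours for the 4 eCLIP libraries and filled points for enriched peaks. DNMT3B holds the highest points in all 4 libraries, up to 7.94 in library 3, and most L1TD1 points lie below 0.

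The enriched share of the 9 windows together was close to that of the lists. It was 14.8% in the windows against 15.9% in the rest of library 1 and 8.05% against 5.38% in library 2. In library 3 it was 11.6% against 12.6%, and in library 4 it was 16.8% against 12.6%. The exact 95% binomial interval of the windows' share held the rest's share in each of the 4 libraries, for example 4.47% to 13.1% in library 2. The mean difference was 1.03 ± 1.98 percentage points (SD, n = 3), smaller than the spread between samples. Without the DNMT3B window the difference was -4.77 ± 6.06 points. Among peaks with at least 10 worked-back immunoprecipitation reads, or with a p at its ceiling, the difference was -13.6 ± 5.19 points. Reads were never worked back for peaks below input, so all of these were left out of that set. Some enriched peaks with unknown reads were left out too, such as those of DNMT3B in library 2 with a −log10 p of 61.5 to 87.9. That difference is thus not the one among all peaks with at least 10 reads. Among peaks whose reads could be worked back, which leaves out those below input, member peaks held more immunoprecipitation reads. The median was 17 in the windows against 4 in the rest of library 2 and 7 against 4 in library 4. It was 4 against 3 in library 1 and 4.5 against 3 in library 3.

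Peaks below input, those with a log2 fold under 0, were more frequent in the windows than in the lists in all 4 libraries. Their share was 13.6% in the windows against 2.80% in the rest of library 1 and 34.5% against 15.6% in library 2. In library 3 it was 14.5% against 4.25%, and in library 4 it was 20.6% against 7.37%. The mean difference was 13.8 ± 4.44 points (SD, n = 3), and the lower ends of the windows' exact 95% intervals lay above the rest's share in each library. The −log10 p was set to 0 for all 22239 listed peaks with a fold below 0, and a loss relative to input therefore has no p. The fold is the ratio of reads times the ratio of input to immunoprecipitation depth, from 1.04 in library 2 to 3.18 in library 1. A fold below input thus takes more input reads than immunoprecipitation reads. No comparison matched for reads was made, and whether the excess followed from read numbers was not tested. Of the 104 member peaks below input, L1TD1 held 36, DNMT3B 23 and DPPA4 20. Over the 4 libraries together these were 61.0%, 13.5% and 38.5% of the listed peaks of each gene. The share was 31.8% in TDGF1, 26.7% in SOX2 and 23.1% in SALL4. It was 6.82% in LIN28A, 5.88% in LIN28B and 0% in POU5F1.

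**Figure D2:**
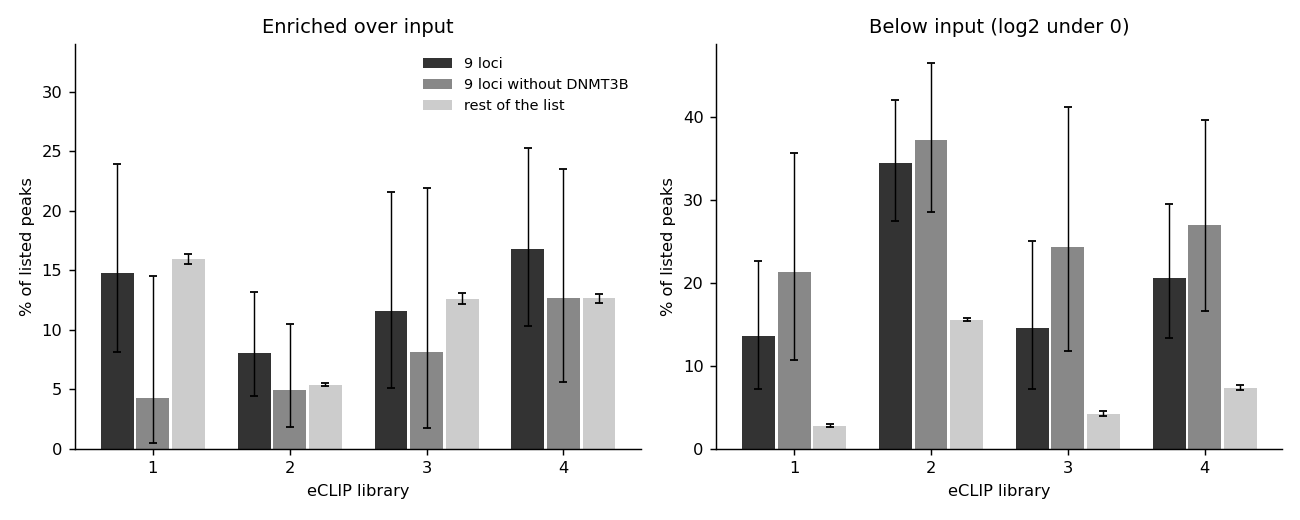
Bars give the percentage of listed peaks that were enriched (left) or below input (right) in each of the 4 eCLIP libraries, for the 9 windows, the windows without DNMT3B and the rest of each list; error bars are exact 95% binomial intervals, which cover counting error only. The intervals of all 9 windows together hold the rest's bar on the left and lie above it on the right; without DNMT3B the enriched interval of library 1 ends at 14.5%, below the rest's 15.9%.

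DNMT3B, on chromosome 20 from 31350 to 31398 kb on the plus strand, had 41, 53, 32 and 44 listed peaks in libraries 1 to 4, of which 11, 8, 5 and 10 were enriched. It thus held 34 of the 53 enriched member peaks, and 170 of the 438 listed ones. Its share of enriched peaks was 20.4% ± 5.96 (SD, n = 3), against 11.3% ± 5.40 in the rest of the lists. Its exact interval reached from 14.2% to 42.9% in library 1, where the rest had 15.9%, and from 6.75% to 27.6% in library 2, where the rest had 5.38%. Only in library 2 did that interval lie wholly above the rest. The interval takes side-by-side peaks of 1 site as separate draws and is therefore too narrow. In library 2, 4 of the 8 enriched peaks tiled 1 region, so this contrast rests on few sites. Peaks of DNMT3B below input numbered 2, 15, 1 and 5 in libraries 1 to 4; in library 2 they were 28.3% of its listed peaks, against 15.6% in the rest of that list.

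Enriched peaks that overlapped between libraries by 1 base or more were joined into regions, and a region was called reproducible when at least 3 of the 4 libraries had an enriched peak in it. The 9 windows held 22 regions of enriched peaks, and 6 were reproducible: 4 in DNMT3B, 1 in LIN28A and 1 in DPPA4. DNMT3B held 9 of the 22, and 99 of the 272 regions joined in the same way from all listed member peaks. Over the whole series 1699 of 7472 such regions, 22.7%, were reproducible. With libraries 3 and 4 joined as 1 sample, 3 member regions, all in DNMT3B, were enriched in all 3 samples. The share of regions over the whole series under this stricter rule was not computed, so the 3 cannot be set against it.

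The strongest member region lay in DNMT3B at 31381422 to 31381730, 31.4 kb into the window, and was 309 bases wide. Its highest log2 fold was 6.78, 5.88, 7.94 and 7.73 in libraries 1 to 4, on average 6.83 ± 0.98 (SD, n = 3). All 4 values lay above every other value of a member peak outside this region. By the mean log2 fold of enriched peaks over libraries it ranked 31 of the 1699 reproducible regions of the series. Within single lists its steepest peak ranked 28 of 4107, 656 of 6370, 31 of 2548 and 40 of 3749 enriched peaks in libraries 1 to 4. By the mean over libraries, the other 5 reproducible member regions ranked low: 1018, 1329 and 1413 for those in DNMT3B, 1540 for the one in DPPA4 and 1603 for the one in LIN28A. It was tiled by side-by-side peaks, 4 each in libraries 1 and 2 and 3 each in libraries 3 and 4, and all 14 of them were enriched. The steepest peak did not sit at the same place in every library: library 3 peaked at 31381500 to 31381651, library 4 at 31381578 to 31381646, library 1 at 31381659 to 31381710 and library 2 at 31381642 to 31381730.

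The read numbers of the steepest peak of each library in this region could not be worked back from the deposited values. The smallest whole read numbers that give the deposited fold of the steepest peak were 69 immunoprecipitation reads over 2 input reads in library 1 and 282 over 5 in library 2. In libraries 3 and 4 they were 116 over 1 and 146 over 1, and larger numbers in the same ratio would give the same fold. In libraries 1, 3 and 4 the deposited −log10 p of that peak stopped at a ceiling, and library 2 gave 61.5. With the peak of highest −log10 p taken in place of the steepest one, the mean log2 fold was 5.77 ± 1.76 (SD, n = 3). In libraries 1, 3 and 4 more than 1 peak shared the highest −log10 p. The first in the list was taken there, so this mean is partly arbitrary.

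Further towards the 3′ end DNMT3B held 3 more reproducible regions. The next, at 31382939 to 31383188, had log2 folds of 4.73, 3.83, 3.67 and 5.0 in libraries 1 to 4 (4.30 ± 0.45, SD, n = 3). In library 3 it rested on 6 immunoprecipitation reads over 1 input read and its −log10 p of 2.26 missed the threshold. The plot of peaks along DNMT3B shows both regions in each library.

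The last pair lay 43.2 and 43.7 kb into the window. At 31393651 to 31393725 the log2 fold was 4.08, 4.04, 4.89 and 3.79 in libraries 1 to 4 (4.15 ± 0.16, SD, n = 3). With the 4 libraries taken singly the SD was 0.48. The reads behind it were 16 over 3, 63 over 4, 14 over 1 and 19 over 2, immunoprecipitation over input. It was enriched in all 4 libraries, as only the strongest region otherwise was among the member regions. At 31393246 to 31393383 the log2 fold was 3.99, 2.53, 5.21 and 3.07 (3.55 ± 0.89). Library 2 missed the fold threshold there although it held the most reads, 133 over 24, with an exact 95% interval of 1.90 to 3.22 on the log2 scale. The interval of library 3, 3.25 to 8.32, did not overlap it. Outside these 4 regions, a region at 31374515 to 31374621 was enriched in libraries 1 and 4 only, with log2 folds of 3.84 and 4.13, against 1.5 in library 2 and no listed peak in library 3.

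**Figure D3:**
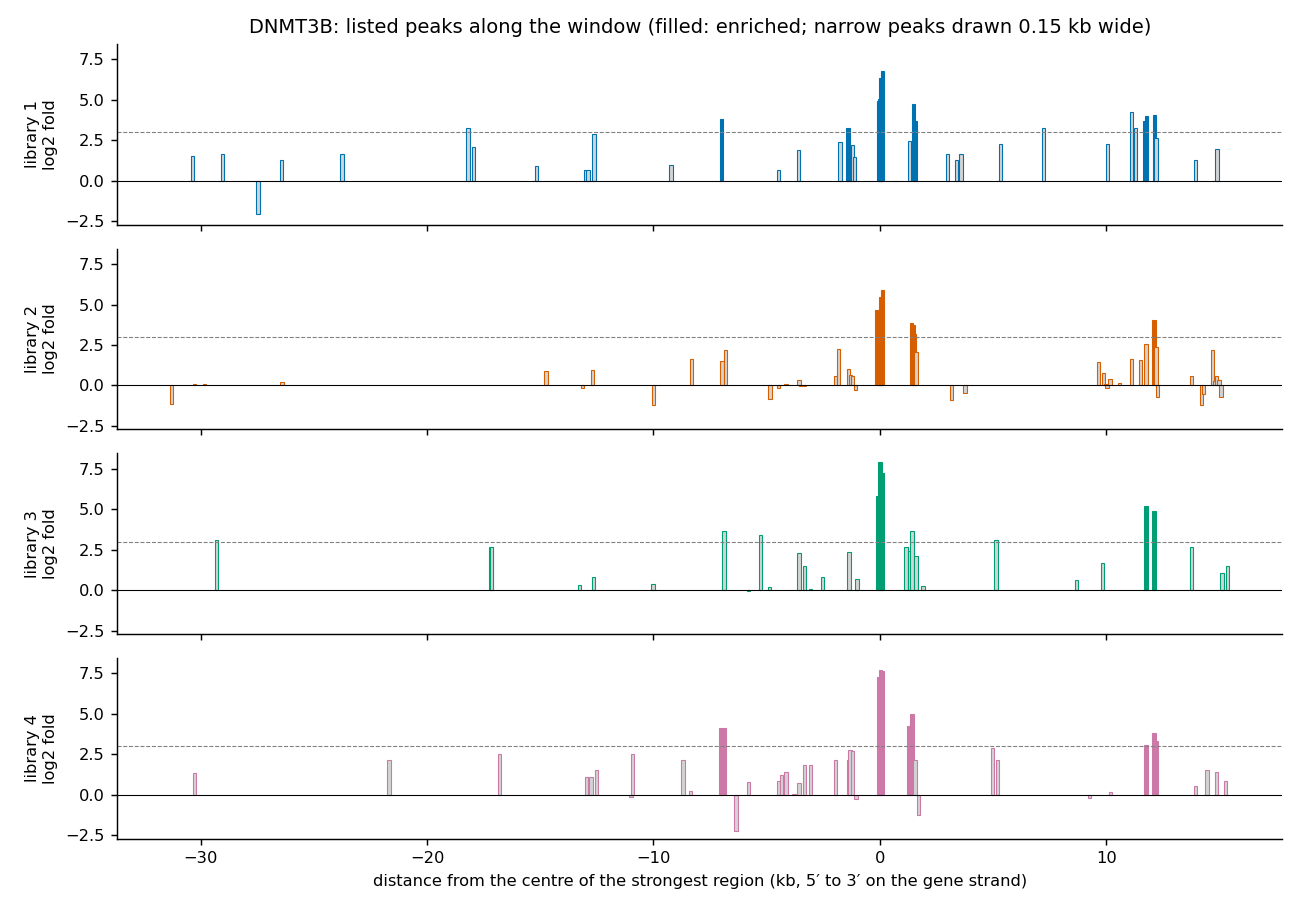
Bars are the listed peaks of DNMT3B in the 4 eCLIP libraries, one panel each, with the distance in kb from the centre of the strongest region on the horizontal axis and the deposited log2 fold over input on the vertical axis. Coloured bars are enriched peaks; the strongest region stands at 0 in every panel, at 6.78, 5.88, 7.94 and 7.73 in libraries 1 to 4, and the other reproducible regions lie to its right.

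LIN28A, on chromosome 1 from 26737 to 26757 kb on the plus strand, had 12, 12, 10 and 10 listed peaks in libraries 1 to 4. Of its 44 listed peaks, 35 lay in the last 5.0 kb of the 20 kb window, and all 7 enriched peaks were among these. Library 4 gave 5 of the 7, libraries 2 and 3 gave 1 each and library 1 none. The 5 regions listed in all 4 libraries lay between 26752975 and 26756177.

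The reproducible region of LIN28A was the last of these, at 26756091 to 26756177. Its log2 fold was 1.67, 3.11, 4.26 and 3.86 in libraries 1 to 4 (2.95 ± 1.21, SD, n = 3). Library 1 held 4 immunoprecipitation reads over 4 input reads there, and library 2 held 58 over 7. The library 1 value was the lowest of the 4, and its exact interval of -0.76 to 4.09 overlapped those of the other 3.

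Further 5′ in the same stretch, the libraries disagreed more at some places. At 26753695 to 26753777 the log2 fold was 0.44, 2.20, 2.89 and 4.19 in libraries 1 to 4. Library 2 had 137 immunoprecipitation reads over 31 input reads, the most of any LIN28A peak whose reads could be worked out, with a −log10 p of 16.3. At 26754868 to 26754925 the values were closer together, at 2.47, 2.55, 3.89 and 3.24 (2.86 ± 0.61, SD, n = 3), yet only library 4 passed both thresholds. A log2 fold of at least 1 with a −log10 p of at least 3 was met by 0 of 12, 6 of 12, 2 of 10 and 5 of 10 LIN28A peaks in libraries 1 to 4. Over all listed peaks this looser rule was met by 18.2%, 7.37%, 13.7% and 14.0%, so library 1 lay below its list and the other 3 above theirs.

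LIN28B, on chromosome 6 from 105404 to 105532 kb on the plus strand, the paralogue of LIN28A, had 6, 25, 1 and 2 listed peaks in libraries 1 to 4 and 0 enriched ones. Its window is 128 kb long, and its listed peaks were the sparsest of the 9, at 0.0846 per kb on average, against 0.567 per kb for LIN28A. None of its peaks with reads that could be worked out held more than 7 immunoprecipitation reads, and its highest −log10 p was 1.49. No region was listed in more than 2 libraries. The one with the highest mean among those in 2 libraries, at 105439128 to 105439216, had log2 folds of 1.67 and 0.80 in libraries 1 and 2.

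DPPA4, on chromosome 3 from 109044 to 109057 kb on the minus strand, had 9, 19, 10 and 14 listed peaks in libraries 1 to 4, of which 0, 2, 1 and 3 were enriched. Its peaks differed along the gene. In the last 3.25 kb towards the 3′ end, 6 of 21 listed peaks were enriched and 2 were below input. In the rest of the window, 0 of 31 were enriched and 18 were below input. All 6 enriched peaks lay within 1 short stretch, at 109045493 to 109045782, so they are not separate sites. The median log2 fold of the last stretch was 1.54, 1.29, 2.32 and 3.77 in libraries 1 to 4, against 0.25, -0.30, 0.54 and -0.25 in the rest of the window. The last stretch was thus higher in all 4 libraries, on 2, 10, 4 and 5 listed peaks in libraries 1 to 4. The 2 peaks of library 1 were not enriched, and libraries 3 and 4 count as 1 sample. The stretches were set after these values were seen.

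The reproducible region of DPPA4, at 109045493 to 109045696, had log2 folds of 3.19 in library 2, 4.04 in library 3 and 4.40 in library 4. The reads behind these were 70 over 8, 31 over 4 and 29 over 2, immunoprecipitation over input. Library 1 listed no peak there, so it was measured in 2 of 3 samples, at 3.71 ± 0.73 (SD, n = 2). The neighbouring region at 109045697 to 109045782 was enriched in libraries 2 and 4, at 3.06 and 4.07, and missed the fold threshold in library 3 at 2.96 with a −log10 p of 3.33.

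**Figure D4:**
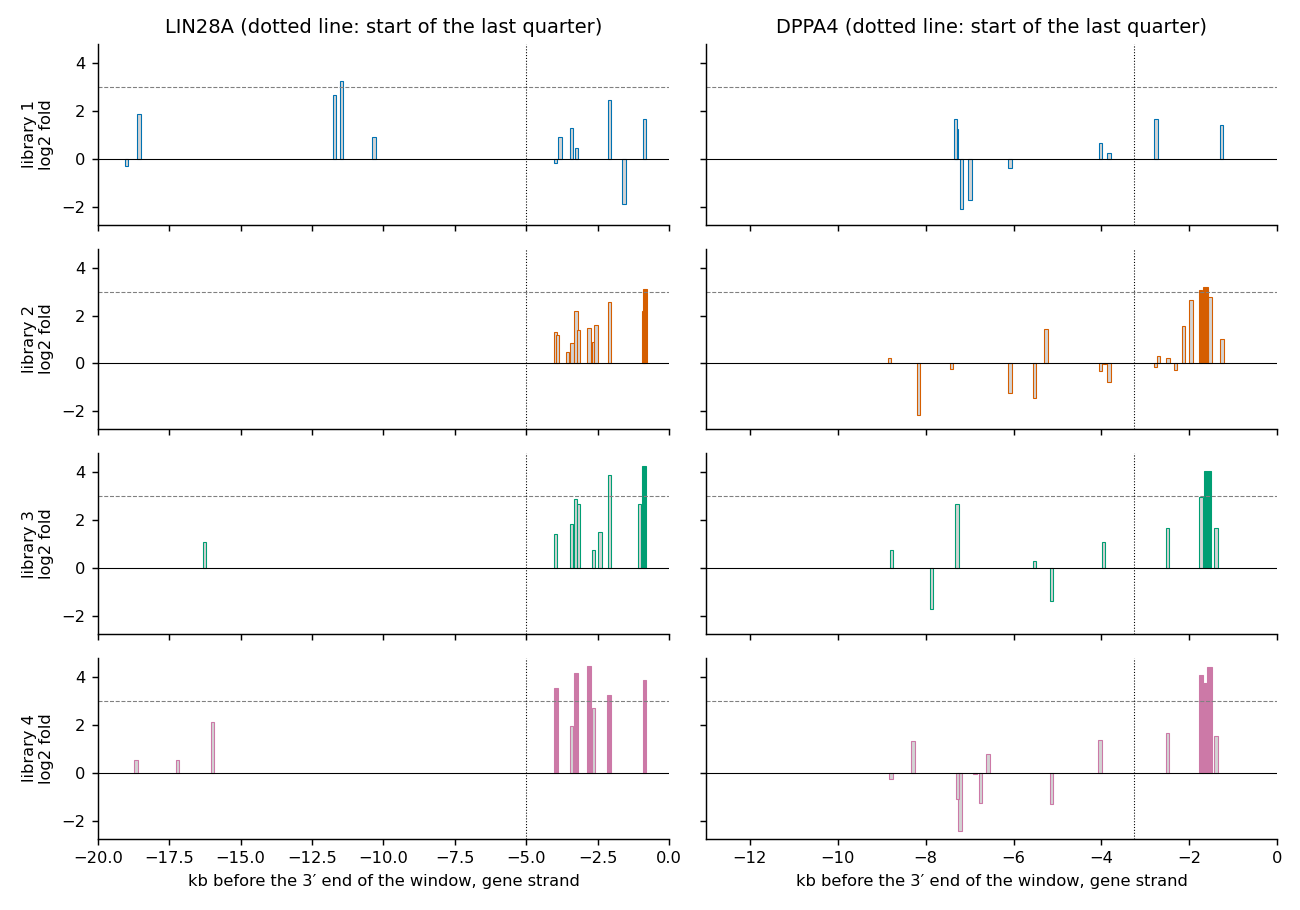
Bars are the listed peaks of LIN28A (left) and DPPA4 (right) in the 4 eCLIP libraries, with the distance in kb before the 3′ end of the window on the horizontal axis and the deposited log2 fold over input on the vertical axis; coloured bars are enriched, and the dotted line marks the last 5.0 kb of LIN28A and the last 3.25 kb of DPPA4. All enriched peaks of both genes lie to the right of the dotted line.

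L1TD1, on chromosome 1 from 62660 to 62679 kb on the plus strand, went the other way. It had 4, 24, 13 and 18 listed peaks in libraries 1 to 4, and 2, 17, 6 and 11 of them were below input. Its 36 of 59 peaks below input, 61.0%, compare with 2.84%, 15.6%, 4.29% and 7.42% of all peaks listed in libraries 1 to 4. Read numbers were not matched in that comparison. The median log2 fold of its peaks was -0.60, -0.58, 0.015 and -0.52 in libraries 1 to 4. The region listed in all 4 libraries, at 62663190 to 62663342, had log2 folds of -1.76, -2.35, -1.28 and -1.81 (-1.88 ± 0.41, SD, n = 3), below input in each. Just 1 L1TD1 peak, in library 4, reached a log2 fold of 1 with a −log10 p of 3, at 2.47 and 3.54.

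The transcription factor genes POU5F1, SOX2 and SALL4 had 1 enriched peak each, of 3, 15 and 39 listed peaks over the 4 libraries. POU5F1, on chromosome 6 from 31132 to 31139 kb on the minus strand, had 1 listed peak in library 1, 2 in library 2 and none in libraries 3 and 4. Its region at 31132359 to 31132473, 0.359 kb from the 3′ end of the window, had a log2 fold of 3.25 in library 1, on 3 immunoprecipitation reads over 1 input read and a −log10 p of 1.35. In library 2 it had 3.06, on 24 over 3 reads and a −log10 p of 4.69, so library 2 alone passed the thresholds.

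SOX2, on chromosome 3 from 181429 to 181433 kb on the plus strand, had 1, 7, 2 and 5 listed peaks in libraries 1 to 4. Library 3 had its single enriched peak, in a region at 181431380 to 181431469, with a log2 fold of 3.26 and a −log10 p of 3.0, at the edge of both thresholds. There library 4 had 2.71 and library 2 had 0.58, with 9 over 2 and 10 over 7 reads. Libraries 3 and 4 both held 9 over 2 reads, and the deposited folds differ by the ratio of input to immunoprecipitation depth, 2.12 in library 3 and 1.46 in library 4.

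SALL4, on chromosome 20 from 50400 to 50420 kb on the minus strand, had 9, 20, 1 and 9 listed peaks in libraries 1 to 4. Its enriched peak in library 1, at 50417971 to 50418033, had a log2 fold of 3.08 and a −log10 p of 3.06 on 8 reads over 3, and no other library listed a peak there. Of its 39 listed peaks, 37 lay outside the last 5.0 kb of the window. A region at 50416690 to 50416779 was listed in all 4 libraries, at 2.25, 0.72, 3.41 and 0.54, and was enriched in none.

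TDGF1, on chromosome 3 from 46616 to 46624 kb on the plus strand, had 5, 12, 0 and 5 listed peaks in libraries 1 to 4. Library 2 had enriched peaks at 46623875 to 46623943 and at 46623650 to 46623724, with log2 folds of 4.31 and 3.23 on 19 over 1 and 18 over 2 reads. Library 4 had 2.77 and 2.13 at the same places, and libraries 1 and 3 listed no peak there. Library 1 had its enriched peak at 46621033 to 46621095, at 3.67, where library 2 had 2.38. The regions with enriched peaks of TDGF1 were thus each enriched in 1 library and listed in 1 other.

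Enriched peaks in the last 25% of the window were 7 of 7 in LIN28A and 6 of 6 in DPPA4. They were 9 of 34 in DNMT3B, 2 of 3 in TDGF1 and 1 of 1 in POU5F1, and the single enriched peaks of SOX2 and SALL4 lay before it. Side-by-side peaks and peaks of 1 site in several libraries are each counted here. The 6 of DPPA4 all lay within 109045493 to 109045782. Listed peaks in the last 25% were 35 of 44 in LIN28A, 21 of 52 in DPPA4 and 50 of 170 in DNMT3B. They were 15 of 22 in TDGF1, 2 of 3 in POU5F1, 4 of 15 in SOX2 and 2 of 39 in SALL4. The enriched share of the last 25% in LIN28A and DNMT3B was thus near that of their listed peaks. Among regions joined from all listed peaks, 14 of the 272 member regions were listed in all 4 libraries, 5.15%, against 2.19% over the whole series. These shares are not matched for libraries or reads. Library 2 gave 174 of the 438 member peaks but 118375 of the 194003 peaks of the series. The 14 regions comprised 7 in DNMT3B, 5 in LIN28A and 1 each in SALL4 and L1TD1, and 187 of the 272 were listed in 1 library only.

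**Figure D5:**
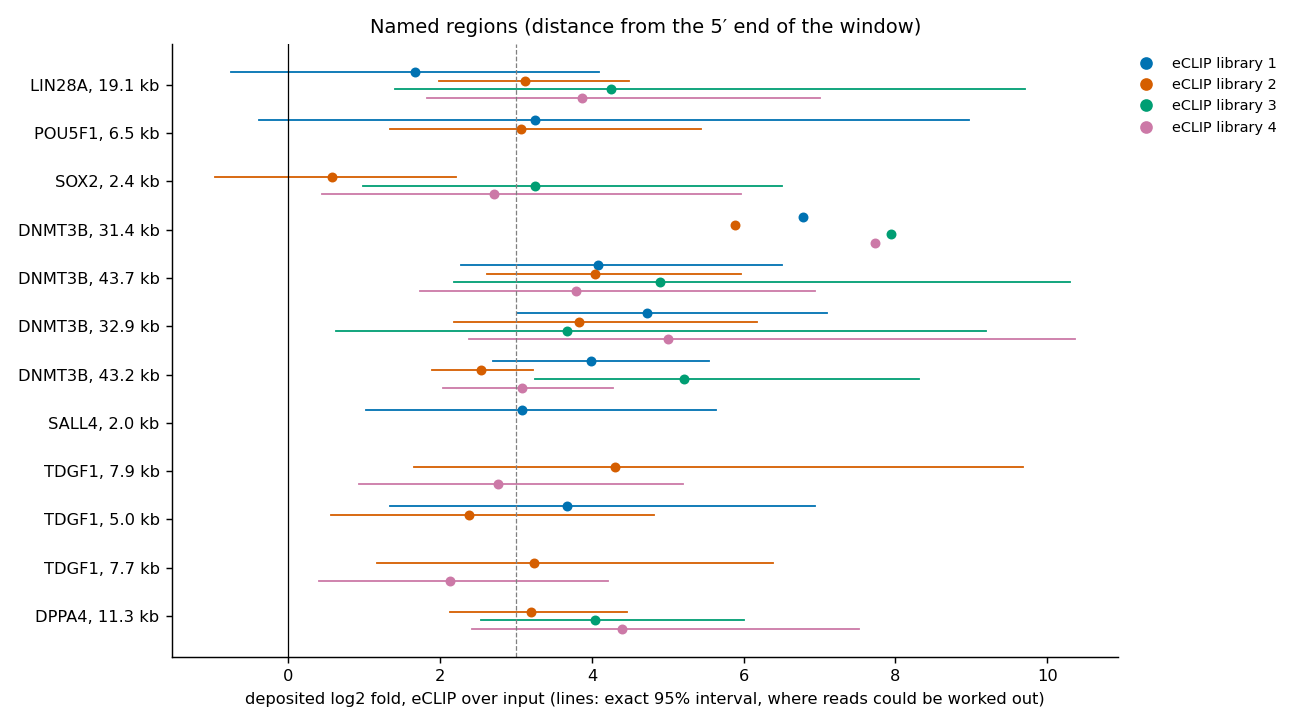
Points give the deposited log2 fold of each named region with an enriched peak in each eCLIP library that listed it, in the order of the genes, with the distance of the region from the 5′ end of its window in the label; lines are exact 95% intervals from the read numbers. The strongest DNMT3B region lies at 5.88 to 7.94, with no interval because the reads of its steepest peaks could not be worked out. Most other intervals are several log2 units wide.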

How the data were processed

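Peaks came from 4 RBPMS eCLIP libraries of HUES6 cells. Per the labels' protocols, reads were paired ends of 75 nt. The deposited lists give, per peak, the authors' −log10 p and the authors' log2 fold of immunoprecipitation over input, on hg19 per the submitters' processing notes. The sources used here give no aligner, no peak caller and not which input served each list. Peaks were called per library.

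From these values, member peaks were found by position, and enriched peaks and regions were counted as stated in the results with Python 3.11.15, pandas 2.3.3, numpy 2.4.6 and scipy 1.17.1. Read numbers were worked back from each pair of deposited values, as the whole numbers whose ratio, times a depth constant per library, gives the fold and whose p matches within a relative 0.003 (Fisher's exact test in its binomial limit, or chi-square with continuity correction for reads of at least 5). Reads were thereby known for 93.8% to 100.0% of peaks with a fold above input, a −log10 p of at least 0.1 and a p under its ceiling. On 5187 simulated peaks 99.9% came back and 0 wrongly, which checks the working back only. An input of 0 and of 1 read cannot be told apart. Total reads per library are unknown, and PCR reads are not independent molecules, so intervals cover counting error only. Intervals of shares also take side-by-side peaks of 1 site as separate draws. Libraries 3 and 4 were averaged before a mean ± SD; no p over members was computed.

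Regions named are, per gene, the reproducible ones, else up to 4 enriched ones, else the listed region found in most libraries; the others given were chosen after their values were seen. The members, thresholds and lists were chosen with earlier results of these data known. Other genes of the pluripotency network were to be counted only with hg19 gene models and were not analysed here. Gene names were matched to RefSeq on GRCh38.p14, 9 of 9.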

Additional observations from a re-analysis of the deposited data

Results flagged for a closer look

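Of 34 quantities compared over the 4 libraries, 6 had 1 library apart from the rest, with libraries 3 and 4 taken singly. All 6 are small counts in which the other 3 libraries were at 0, so that any count above 0 stands apart by construction and the usual chance rate of 1 in 20 does not apply to them. POU5F1 had 1 enriched peak, in library 2, SOX2 had 1, in library 3, and SALL4 had 1, in library 1. Peaks below input numbered 3 for LIN28A, all in library 1. They numbered 2 for LIN28B and 9 for SALL4, all in library 2, the library with the longest list.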

How the results depend on the processing

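No paired analysis was possible because no peak list was used for any input library, numbered alike or not. Mean enriched peaks in the 9 windows, 13.3, were 7.0 with a log2 fold of at least 4 and 4.5 without DNMT3B. They lay between 11.7 and 15 with each library left out and stayed within 1.5 times under the other alternatives run. The 6 reproducible regions were 2 with a log2 fold of at least 4, 2 when all 4 libraries were asked for, 2 without DNMT3B and 3 when all 3 samples were asked for, and 6 to 8 when 1 library was omitted and 2 of the 3 kept were enough. Stricter thresholds and fewer windows can only remove peaks. The difference in enriched share was 1.03 points. It was -13.6 points among peaks with at least 10 worked-back immunoprecipitation reads or a p at its ceiling, a set without peaks below input. It was -4.77 without DNMT3B and 0.168 to 2.13 with each library left out. The cause of the -13.6 was not tested. The difference in peaks below input, 13.8 points, was 8.72 without L1TD1 and 11.3 to 15.3 with each library left out. Mean listed peaks lay between 88 and 131 with each library left out, and the median log2 fold of the reproducible regions, 3.93, between 3.88 and 4.22. The alternatives without a gene, the joined samples and those for peaks below input were chosen after seeing the data. Depth limits folds on 1 input read, 30.6% to 61.6% of each list's enriched peaks with known reads.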
